A study of Homo sapiens with 9 samples.

Results

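Genes of DNA double-strand break repair and of the checkpoint that answers such breaks were followed on 9 microarrays of LNCaP cells, a widely used human prostate cancer line whose growth depends on androgen. A list of 40 genes was fixed by name. Of these, 35 had a probe set of their own among the 19775 genes measured, and where a gene had several, as 24 of the 35 did, the one brightest on average was used. NHEJ1 had only a probe set that it shares with SLC23A3, and BRCA2, RBBP8, FANCA and FANCD2 were not analysed here. All 35 lay above the filter on low values, which kept 11865 genes. By role, 14 belonged to homologous recombination, the Fanconi gene FANCI included, 9 to end joining and 12 to break sensing, signalling and the checkpoint.

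Each of 9 groups had 1 array. In the inhibitor series, cells were grown in 10% fetal bovine serum (steady state), or kept without androgen for 48 h, in 5% serum stripped with charcoal, and then given vehicle, 100 nM dihydrotestosterone (DHT) for 16 h, or DHT after 2 h with 100 µM etoposide or 100 µM merbarone. For the shRNA series a vector was transfected that made green fluorescent protein and either a control shRNA (sh-control) or one against TOP2B (sh-TOP2B). These cells were deprived of androgen, given vehicle or 100 nM DHT for 16 h, and sorted for fluorescence. Untransfected cells were not sorted, so series, transfection and sorting cannot be told apart. Etoposide traps topoisomerase II on DNA that it has cut, whereas merbarone blocks the enzyme's cycle without trapping it in this way.

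A double-strand break is bound by the MRE11-RAD50-NBN complex, which activates the kinase ATM. ATM phosphorylates the histone variant H2AX around the break, MDC1 docks there, the ubiquitin ligases RNF8 and RNF168 act next, and TP53BP1 or the BRCA1-BARD1 complex is then recruited. Homologous recombination resects the ends and copies the sister chromatid, so it works in cells that have replicated their DNA. Non-homologous end joining seals the ends directly through XRCC5-XRCC6 (Ku), the kinase PRKDC and the ligase LIG4 with XRCC4, in any phase of the cell cycle, and polymerase theta (POLQ) joins resected ends by short matches.

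All levels are on the log2 scale, and each difference is one of log2 levels, given ± its standard error (SE) from limma. A level below its array's median (5.61 to 5.72) is called dim, and where a difference involves such a level, it is given as a bound, computed with the median in the dim level's place. The spread in all tests came from how far the DHT effect differed between 3 backgrounds: untransfected cells, cells with the control shRNA and cells with the TOP2B shRNA. In bulk RNA, fewer cells of a kind and less RNA per cell cannot be told apart. Lone arrays were assumed to vary like the arrays of those pairs, and since no label tells of separate cultures within a group, a p-value here speaks of the spread among these arrays alone, which may be technical.

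The arrays carried the luminal prostate identity of LNCaP cells: of 7 luminal markers measured, KRT8, KRT18, HOXB13, FOLH1 and TMPRSS2 were above 9 on every array, while KLK3 ranged from 5.56 to 13.8 and KLK2 from 3.86 to 12.2, both higher with DHT than with vehicle in all 3 pairs. PTPRC, a leukocyte marker, KRT14, a basal one, and COL1A2, DCN and LUM, 3 of 4 fibroblast markers, were dim on all 9 arrays. KRT5, the other basal marker measured, was dim on all arrays but the inhibitor-series vehicle array (5.685 against a median of 5.657). COL1A1 lay between 8.05 and 9.63 and was highest on the shRNA arrays. The T-cell marker CD3E (5.85 to 6.27) and the endothelial markers PECAM1 (6.35 to 6.66) and VWF (7.16 to 7.95) were above the array median on the 5 inhibitor-series arrays. On the shRNA arrays CD3E (5.00 to 5.55) and PECAM1 (4.89 to 5.46) were dim and VWF was at 6.07 to 7.23; the part of these in any result was not tested. RNA quality differed between the series: the 3' minus 5' difference of the beta-actin control probe sets was 0.38 to 0.70 in the inhibitor series and 2.38 to 3.09 in the shRNA series. A list of 20 proliferation genes had a median level of 9.97 in steady state, 5.89 to 6.35 on the 4 deprived arrays of the inhibitor series and 9.03 to 9.66 on the 4 shRNA arrays.

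The recombination genes varied most over the 9 arrays. Their median level was 8.31 in steady state, 5.997 to 6.39 on the deprived inhibitor-series arrays and 8.32 to 8.84 on the shRNA arrays. Both these genes and the proliferation genes were lowest on the deprived inhibitor-series arrays. The difference between a gene's highest and lowest array had a median of 2.92 in recombination, 2.00 in signalling and 1.37 in end joining, and 1.37 over all genes tested (2.74 in recombination with dim levels at the array median). It reached 2 or more in 17 of the 35 genes, against 27.2% of all genes tested. By role these were 9 of 14 recombination genes, 2 of 9 end-joining genes (POLQ and PARP1) and 6 of 12 signalling genes. EME1, a subunit of a nuclease that cuts joined DNA molecules, spanned 5.09 and FANCI 4.56, neither with a dim level. RAD51AP1, which promotes strand pairing in recombination, spanned at least 4.86, and the exonuclease gene EXO1 at least 3.46, since both were dim at their lowest. At the other end stood POLL, the gene of polymerase lambda (0.33), TP53BP1 (0.40) and XRCC6 (0.52). Only 5 genes were dim on any array, all of them in recombination: EXO1 and BLM on the 4 deprived inhibitor-series arrays, XRCC3 with vehicle and with etoposide, BRCA1 with each inhibitor, and RAD51AP1 with etoposide.

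**Figure D1:**
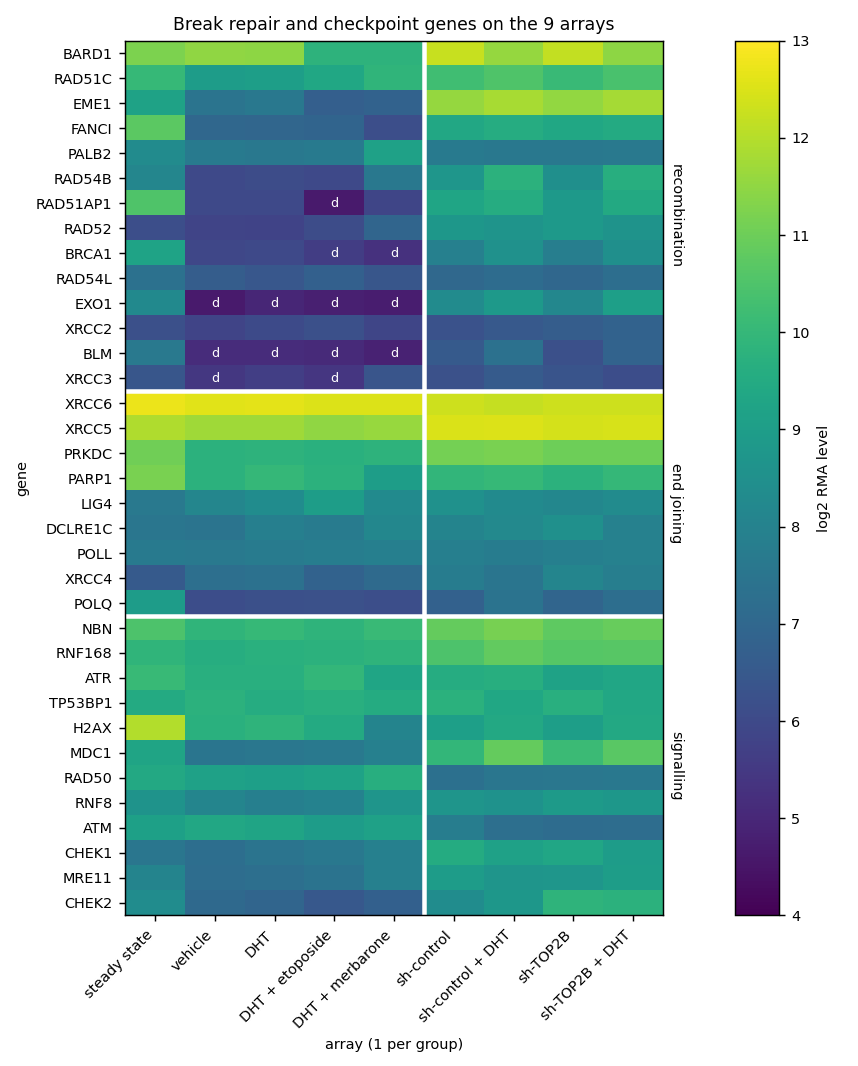
Level (colour, log2 RMA) of the 35 genes (rows, by role) on the 9 arrays (columns, 1 per group; white lines part the roles and the 2 series); d marks a level below the array median. Colours compare arrays within a gene, not genes with each other. EXO1 and BLM are dim on the 4 deprived arrays of the inhibitor series, and XRCC6 keeps its colour throughout, with a range of 0.52.

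The promoters of 5 genes that turn up in different comparisons below are shown, from RefSeq (GRCh38.p14), as the bases just before the annotated start of transcription. RAD51AP1 rose most in serum-grown cells, BLM was dim on the 4 deprived inhibitor-series arrays and not in steady state, H2AX rose there and fell with merbarone, BARD1 fell with both inhibitors, and CHEK2 was higher with the TOP2B shRNA. Capitals mark CCAAT, the letters bound by the factor NF-Y, and TTTGAA, a form of the cell-cycle homology region found in cell-cycle genes, on either strand.
RAD51AP1 (chr12:4538740-4538889, plus strand): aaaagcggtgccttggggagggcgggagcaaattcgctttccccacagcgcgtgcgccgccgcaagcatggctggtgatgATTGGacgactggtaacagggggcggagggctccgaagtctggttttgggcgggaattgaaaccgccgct
BLM (chr15:90717196-90717345, plus strand): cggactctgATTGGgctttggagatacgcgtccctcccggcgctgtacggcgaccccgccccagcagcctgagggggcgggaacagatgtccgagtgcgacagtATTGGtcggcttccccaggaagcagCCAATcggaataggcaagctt
H2AX (chr11:119095466-119095715, minus strand): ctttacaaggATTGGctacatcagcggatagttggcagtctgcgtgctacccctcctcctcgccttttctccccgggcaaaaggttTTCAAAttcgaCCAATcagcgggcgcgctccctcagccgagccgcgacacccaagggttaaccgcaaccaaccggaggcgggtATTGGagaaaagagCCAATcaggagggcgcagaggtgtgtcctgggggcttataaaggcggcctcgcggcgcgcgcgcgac
CHEK2 (chr22:28741821-28742030, minus strand): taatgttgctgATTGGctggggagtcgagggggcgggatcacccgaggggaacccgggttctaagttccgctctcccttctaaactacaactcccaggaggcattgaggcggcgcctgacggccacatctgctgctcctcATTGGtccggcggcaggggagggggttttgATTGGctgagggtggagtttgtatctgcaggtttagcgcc
BARD1 (chr2:214809684-214809833, minus strand): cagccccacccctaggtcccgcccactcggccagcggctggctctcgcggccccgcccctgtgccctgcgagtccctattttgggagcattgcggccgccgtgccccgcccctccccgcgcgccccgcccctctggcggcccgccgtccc

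In these stretches H2AX held CCAAT 4 times and TTTGAA once, CHEK2 and BLM held CCAAT 3 times each, RAD51AP1 held it once, and BARD1 held neither. The stretches differ in length, 250 bases for H2AX, 210 for CHEK2 and 150 for the others, so their counts cannot be ranked. Both strands were searched in windows of 300 bases, 250 before the start and 50 after it, which were at hand for 30 of the 35 genes. CCAAT was in 16 of the 30 windows (53.3%), against 36.9% of the windows of genes tested and 35.7% of all windows. TTTGAA was in 4 of 30 (13.3%), those of H2AX, MDC1, POLQ and ATM, against 9.17% and 15.4%. An E2F form with the letters TTTCCCGC was in the window of XRCC2 (3.33%, against 2.71% of genes tested and 1.66% of all windows). Another E2F form, spelled TTTGGCGC, was in that of XRCC6 (3.33%, against 1.04% and 0.659%). Of the 12 windows of genes called higher in serum-grown cells, 0 held either form. No match overlapped another in the stretches shown. A match is a description of letters, and none was tested as a site.

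Serum-grown cells were set against deprived cells to ask which repair genes stood higher where serum, with its androgen, was present. Of the 35 genes, 16 were higher and 0 lower (limma, adjusted p below 0.05), or 45.7%, against 28.1% of all genes tested called in either direction, 15.7% called higher and 12.4% called lower. At an unadjusted p below 0.05, 21 were higher and 1, XRCC4, was lower. The median difference was 1.37 in recombination, 0.46 in signalling and 0.16 in end joining, against 0.04 over all genes tested. A difference of at least 1 upward was seen in 14 of 35 (6.45% of all genes tested) and downward in 0 (6.74%). Beside them, 19 of 20 proliferation genes rose, with a median of 3.22 on the deposited values. Of the 20, 8 were dim with vehicle, and the part of proliferation genes in the result was not tested.

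Among recombination genes 8 of 14 rose. RAD51AP1 went from 6.003 to 10.54, a rise of 4.54 ± 0.25 or 23.2-fold (limma adjusted p = 8.85e-05). FANCI, which with FANCD2 marks crosslinked DNA for repair, went from 7.02 to 10.72 (3.69 ± 0.19, adjusted p = 6.52e-05). BRCA1, which directs resected ends into recombination, went from 5.92 to 9.22, a 9.82-fold rise (adjusted p = 0.000454). EXO1, which resects ends, was dim with vehicle (4.64) and stood at 8.28 in steady state, a rise of at least 2.63. BLM, the helicase that takes apart joined molecules, was dim with vehicle too (5.14) and rose by at least 2.00, to 7.66. The 2 probe sets of BRCA1 were at 1.48 and 3.30, and the 3 of FANCI ranged from 0.91 to 3.69. RAD54B (2.15), EME1 (1.71) and RAD51C (1.03) also rose. BARD1, the obligate partner of BRCA1, did not follow it: its level was 11.23 in steady state and 11.50 with vehicle (-0.26 ± 0.23, adjusted p = 0.477), and its 3 probe sets ranged from -0.31 to -0.23. RAD52 (0.29), XRCC2 (0.36), PALB2 (0.62), RAD54L (0.71) and XRCC3 (at least 0.75, dim with vehicle) did not pass.

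End joining was uneven. POLQ rose from 6.13 to 8.99, or 7.24-fold (limma adjusted p = 0.00083). PARP1, which marks breaks with poly(ADP-ribose), rose by 1.42 ± 0.14 and PRKDC by 1.28 ± 0.12. The Ku genes XRCC5 (11.72 to 11.91) and XRCC6 (12.59 to 12.74), LIG4 (-0.50), XRCC4 (-0.72 ± 0.24, adjusted p = 0.064), the nuclease gene DCLRE1C (0.07) and POLL (0.05) did not pass. In signalling, H2AX went from 9.71 to 11.97 (2.26 ± 0.16, adjusted p = 0.000237), MDC1 from 7.49 to 9.24, and CHEK2, the checkpoint kinase downstream of ATM, from 7.07 to 8.38 (adjusted p = 0.00824). For H2AX the 4 probe sets ranged from 0.16 to 2.34. MRE11 (0.88) and NBN (0.60) rose, while RAD50, the third subunit of their complex, was at 0.26 ± 0.19 and did not pass. Neither apex kinase passed, ATM at -0.28 ± 0.23 and ATR at 0.41 ± 0.15. CHEK1, the kinase downstream of ATR, was at 0.28 on its brightest probe set, the lowest of its 4 probe sets, which ranged up to 1.41.

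**Figure D2:**
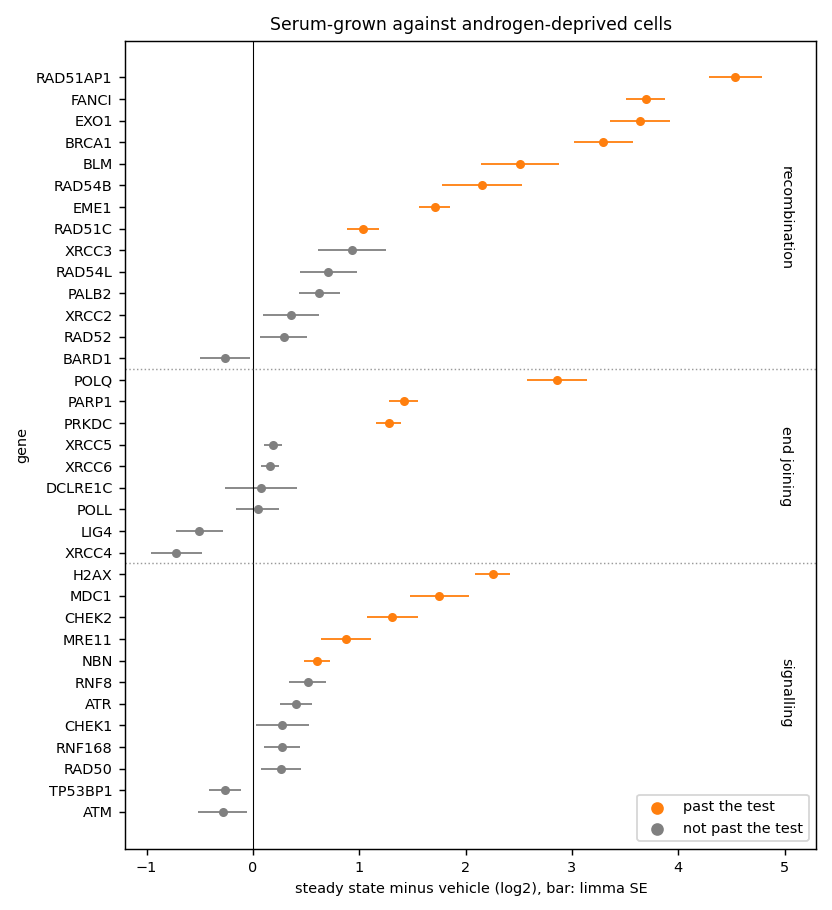
Difference between serum-grown and androgen-deprived cells (x axis, log2; points: 1 array against 1; bars: limma SE) for the 35 genes (y axis, by role). The 16 genes past the test (orange) all lie to the right of 0, from NBN at 0.60 to RAD51AP1 at 4.54.

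The calls for MRE11 and NBN were lost without the sh-TOP2B pair in the spread (limma adjusted p = 0.0544 and 0.0534), that for MRE11 under 4 of 8 settings in all, and NBN's 5 probe sets ranged from -0.22 to 0.60. Centring the arrays on control genes moved the share of higher calls over all genes from 55.7% to 37.5%. The median of all genes moved from 0.04 to -0.12, and the split of the repair genes was then 14 higher and 1 lower (XRCC4). Genes that had not passed gained calls under other settings. PALB2 was called higher without the intensity trend, with the stricter filter, with the median over probe sets and without the inhibitor pair. CHEK1 was called higher and LIG4 lower with the median over probe sets. With quantile normalization again XRCC3 was called higher and XRCC4 lower. Without the inhibitor pair ATR and RNF8 were called higher and BARD1 and XRCC4 lower. Of 80 other genes of the same pathways that were tested, 24 rose and 2 fell, a called share of 32.5%. BRIP1, a helicase that binds BRCA1, was dim with vehicle and rose by at least 2.95, RMI2, of the BLM complex, rose by 3.17, MCM8 by 2.92 and UBE2T, the ubiquitin-conjugating enzyme of the Fanconi pathway, by 2.68. EME2 (-1.13) and ZSWIM7 (-0.57) fell.

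The deprived cells of the 2 series differed as well, which is described here without a test. The sh-control arrays were set against the inhibitor-series arrays of the same treatment, vehicle with vehicle and DHT with DHT. All 14 recombination genes had a mean difference above 0, with a median of 2.04 (1.82 with dim levels at the array median), against 0.18 over all genes tested, of which 57.8% were above 0. Of the 35 genes, 16 were at least 1 higher and 2 at least 1 lower on the sh-control arrays, against 22% and 11.4% of all genes tested. EME1 differed by 4.11 with vehicle and 4.19 with DHT, EXO1, dim in the inhibitor series, stood at 4.64 against 8.33 with vehicle and 4.96 against 8.84 with DHT, and RAD51AP1 differed by 3.28 and 3.58. The genes that were lower were ATM (-1.58 and -1.97) and RAD50 (-1.83 and -1.54), while PALB2 stood within 0.02 both times (-0.01 and 0.02). All 4 shRNA arrays were above both the vehicle and the DHT array of the inhibitor series for 25 of the 35 genes, against 45.5% of all genes tested. On the 20 proliferation genes the median difference was 2.21 on the deposited values, with 8 of them dim with vehicle and 4 with DHT in the inhibitor series. The higher beta-actin 3' minus 5' difference went with the same arrays, and the part of RNA quality, transfection and sorting was not tested.

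DHT was set against vehicle in 3 pairs, and the leading recombination genes stood higher with it in the shRNA pairs without passing the test. None of the 35 genes passed (limma, 0 at adjusted p below 0.05), against 0.447% of all genes tested, 0.421% called higher and 0.0253% called lower; at an unadjusted p below 0.05, 7 were higher and 2 lower. A mean difference of at least 1 upward was seen in 0 of 35 (0.86% of all genes tested), as it was downward (0.447%). DHT was above vehicle in all 3 pairs for 14 genes and below it in all 3 for 4, against 18% and 21.9% of all genes tested. The inhibitor pair shares its vehicle array with the serum comparison. For the genes that led, differences were larger in both shRNA pairs than in the inhibitor pair. RAD54B, a DNA motor protein of recombination, went from 5.99 to 6.08 in the inhibitor pair, from 8.72 to 9.80 in sh-control cells and from 8.48 to 9.63 in sh-TOP2B cells (mean 0.77 ± 0.22, adjusted p = 0.15). EXO1 was higher in each pair on the deposited values (0.32, 0.51 and 0.91), but both inhibitor-pair levels were dim, and the mean bound was 0.47. MDC1 had differences of 0.09, 0.92 and 0.55, BRCA1 of 0.07, 0.64 and 0.63, and H2AX of 0.14, 0.35 and 0.40. BARD1 went the other way, by -0.01 in the inhibitor pair, -0.68 in sh-control cells and -0.69 in sh-TOP2B cells (mean -0.46 ± 0.14, adjusted p = 0.159), and its 3 probe sets had means of -0.72 to -0.46. TP53BP1 had differences of -0.21, -0.36 and -0.29 (mean -0.29 ± 0.09, adjusted p = 0.161). The 4 probe sets of TP53BP1 had means from -0.48 to 0.11, and the 2 not dim on average were at -0.29 and 0.11. In end joining POLQ led (0.05, 0.65 and 0.31), and XRCC5, XRCC6 and PRKDC had means between -0.03 and 0.04.

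Without the inhibitor pair, limma called 8 of the 35, against 20.1% of all genes: BRCA1, RAD51C, RAD54B, EXO1, MDC1 and H2AX higher and BARD1 and TP53BP1 lower. All 20 proliferation genes had a mean above 0, with a median of 0.32 on the deposited values, and 0 passed (12 at an unadjusted p below 0.05). In the inhibitor pair 8 of the 20 were dim with vehicle and 4 with DHT. Of the 80 other pathway genes tested, CDC25A, the phosphatase that checkpoint kinases restrain, rose (1.10 ± 0.12, adjusted p = 0.0232) and 0 fell. In sh-control cells the gap between beta-actin's 3' and 5' probe sets was 2.67 after DHT and 3.09 after vehicle, and in sh-TOP2B cells 2.38 and 2.69; its part was not tested.

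Etoposide with DHT was set against DHT alone to ask what changed in repair genes when topoisomerase II was trapped on cut DNA. Among the repair genes BARD1 fell, and no other gene passed. Of 35 genes, 0 were higher and 1 lower (limma, adjusted p below 0.05), or 2.86%, against 1.05% of all genes tested called in either direction, 0.211% called higher and 0.834% lower. A difference of at least 1 was seen upward in 0 of 35 (0.624% of all genes tested) and downward in 2 (1.42%), BARD1 and RAD51AP1, of which RAD51AP1 rests on a dim level and is not shown to pass 1. At an unadjusted p below 0.05, 1 gene was higher and 4 were lower. The median difference was -0.08 in recombination, -0.10 in end joining and 0.08 in signalling, against -0.06 over all genes tested; with dim levels at the array median it was 0.02 in recombination. BARD1 fell from 11.49 to 9.81, by 1.68 ± 0.23 or 3.20-fold (adjusted p = 0.0364), and its 3 probe sets lay close together, at -1.76 to -1.68. EME1 went from 7.62 to 6.71 (-0.91 ± 0.15, adjusted p = 0.0534) and RAD51AP1 from 5.999 to a dim 4.64 (at least 0.32 lower, adjusted p = 0.0697); neither passed. LIG4, the ligase that seals joined ends, had the largest positive difference in the 35, from 8.38 to 9.005 (0.62 ± 0.22, adjusted p = 0.258), and its partner XRCC4 went from 7.36 to 6.82 (-0.54 ± 0.24, adjusted p = 0.368).

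On the probe sets used, all 12 signalling genes lay between -0.44 (CHEK2) and 0.30 (ATR), and 0 had an unadjusted p below 0.05. With the median over probe sets, the signalling median was -0.16 rather than 0.08. The 4 probe sets of CHEK1 ranged from -0.50 to 0.13, the 4 of H2AX from -0.61 to 0.16 and the 3 of ATR from -0.17 to 0.30. ATM was at -0.29, H2AX at -0.34, CHEK1 at 0.13, and the MRE11, RAD50 and NBN genes at 0.15, 0.11 and -0.18. These are transcript levels, and phosphorylation of H2AX or activation of ATM is not measured by them. The p53 target CDKN1A rose on the same array from 11.25 to 13.02 (adjusted p = 0.0153), and TOP2B went from 10.57 to 9.94 without passing. The 20 proliferation genes had a median difference of -0.72, with 2 lower and 0 higher past the test; their part was not tested. None of the 80 other pathway genes tested passed with limma (9 at an unadjusted p below 0.05). The BARD1 call was lost without the sh-control pair (adjusted p = 0.156) and without the sh-TOP2B pair (0.0836) in the spread, while its size was the same, and over all settings tried its adjusted p lay between 1.56e-06 and 0.174. Neither of these pairs enters the BARD1 difference, so leaving one out could not change its size. Among all genes called, 20.2% were higher, and 32.2% after centring on control genes.

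Merbarone with DHT was set against the same DHT array, so the comparisons of both inhibitors share it. Repair genes split: PALB2, RAD54B, RAD52, RAD51C and RNF8 rose, and H2AX, BARD1, PARP1, FANCI and EME1 fell. These were 5 higher and 5 lower of 35 (limma, adjusted p below 0.05), or 28.6%, against 31.7% of all genes tested, 15.4% called higher and 16.3% lower, so the share of repair genes called was near that of all genes. A difference of at least 1 was seen upward in 3 of 35 (6.81% of all genes tested) and downward in 2 (7.54%). By role, 7 of 14 recombination, 1 of 9 end-joining and 2 of 12 signalling genes were called. Median differences were -0.13, -0.06 and 0.10, against 0.00 over all genes tested.

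PALB2, the bridge between BRCA1 and BRCA2, stood between 7.60 and 8.34 on the 8 other arrays and at 9.14 with merbarone. From 7.60 with DHT alone this was a rise of 1.55 ± 0.19 or 2.92-fold (limma adjusted p = 0.00206), and it passed under every setting tried. RAD54B went from 6.08 to 7.61 (1.53 ± 0.38, adjusted p = 0.0232; 0.0549 without the sh-control pair). The RAD54B call was lost without the intensity trend as well. RAD52, a strand-annealing protein, went from 5.83 to 6.92 and RAD51C from 9.06 to 9.89, where its 2 probe sets agreed (0.83 and 0.84). BARD1 fell from 11.49 to 9.83, by 1.66 ± 0.23 (adjusted p = 0.00323), and its 3 probe sets differed by -2.25 to -1.54. EME1 fell by 0.80 ± 0.15. FANCI fell by 0.82 ± 0.19 on its brightest probe set, but its 3 probe sets ranged from -0.82 to 0.17, and with their median it did not pass (-0.17). BRCA1, dim with merbarone, was at least 0.38 lower and did not pass (adjusted p = 0.108).

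H2AX had the largest fall of the 35, from 9.85 to 8.07, or 3.42-fold (limma adjusted p = 0.000735), its lowest level on any array. Its 4 probe sets were all lower (-1.78 to -0.10), and with their median it missed the threshold (-0.72, adjusted p = 0.0542). RNF8, the ligase that reads the MDC1 platform, rose from 7.89 to 8.69 (adjusted p = 0.0145), and its other probe set, dim on average, was at -0.27. Both MRE11 (7.28 to 7.92, adjusted p = 0.0811) and RAD50 (9.08 to 9.64, adjusted p = 0.0651) stood higher without passing. In end joining PARP1 fell from 9.99 to 9.03, by 0.96 ± 0.14 (adjusted p = 0.00335), under every setting tried. On the probe sets used, the other 8 genes lay between -0.26 (XRCC4) and 0.28 (DCLRE1C). EME1, RAD52 and RNF8 also lost their calls with the median over probe sets (adjusted p = 0.0705, 0.212 and 0.516). With that setting XRCC5 (-0.36) and NBN (0.58) gained calls. The 3 probe sets of XRCC5 ranged from -0.70 to -0.08 and the 5 of NBN from -0.08 to 1.13.

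Of the 80 other pathway genes tested, 19 rose and 12 fell (38.8% called). SFR1, a recombination factor, rose by 1.68, UIMC1, which brings a BRCA1 complex to ubiquitin, by 1.63, and the checkpoint kinase gene WEE1, which holds cells before mitosis, by 1.60. FANCL, the ubiquitin ligase of the Fanconi pathway (-1.69), and the nuclease gene ERCC4 (-1.23) fell, and FANCM, dim with merbarone, fell by at least 0.53. CDKN1A rose from 11.25 to 13.22. TOP2B went from 10.57 to 10.03 and was called lower, just inside the threshold. Among 20 proliferation genes 1 rose and 6 fell, with a median of -0.56, and their part was not tested.

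**Figure D3:**
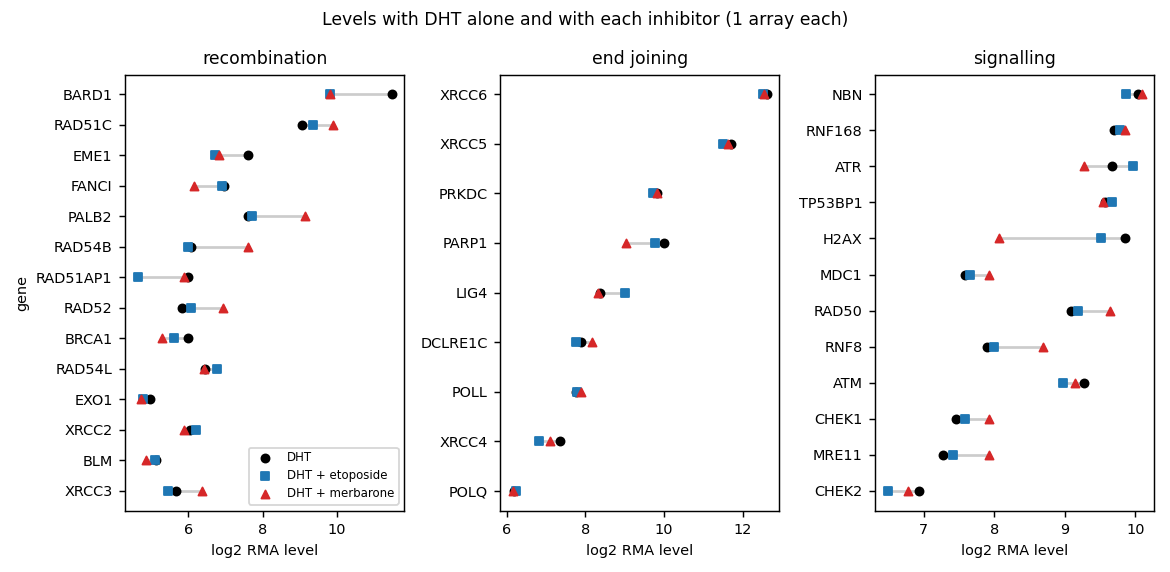
Levels (x axis, log2 RMA) of the 35 genes (y axis) with DHT alone (black circle), DHT with etoposide (blue square) and DHT with merbarone (red triangle), 1 array each, by role. BARD1 is at 9.81 and 9.83 with the inhibitors against 11.49 with DHT alone, while H2AX, PARP1, PALB2 and RAD54B stand apart only with merbarone.

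The inhibitors were then compared directly, 1 pair of compounds at the same dose of 100 µM and the same times, which avoids the shared DHT array. Etoposide was higher for 4 genes and lower for 6 of 35 (limma, adjusted p below 0.05), or 28.6%, against 32.6% of all genes tested, 13.5% higher and 19.1% lower. A difference of at least 1 was seen upward in 1 of 35 (6.03% of all genes tested) and downward in 3 (8.19%), or in 2 with RAD51AP1, dim with etoposide, at its bound. H2AX stood at 9.51 with etoposide and 8.07 with merbarone, a difference of 1.43 ± 0.16 (adjusted p = 0.00166, 95% interval 1.04 to 1.82). PARP1 (0.75), FANCI (0.74) and ATR (0.69) were also higher with etoposide. RAD54B (5.99 against 7.61, -1.62 ± 0.38), PALB2 (7.72 against 9.14, -1.42 ± 0.19), RAD52 (-0.85), RNF8 (-0.70) and RAD51C (-0.52) were lower with it, as was RAD51AP1, dim with etoposide, by at least 0.22. BARD1 differed by -0.02 between the compounds, with a 95% interval of -0.58 to 0.54, and EME1 by -0.11 (-0.47 to 0.25). For XRCC6 the interval ran from -0.22 to 0.18 and for XRCC5 from -0.33 to 0.08. LIG4 was 0.68 higher with etoposide (95% interval 0.16 to 1.21) and did not pass in the main fit (adjusted p = 0.0544). Its 2 probe sets were at 0.53 and 0.68. It passed with the stricter filter, the median over probe sets, centring on control genes, quantile normalization again and without the inhibitor pair. XRCC3, dim with etoposide, passed without the intensity trend and with quantile normalization again, and NBN with the median over probe sets.

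FANCI, RAD51C, RAD52 and RNF8 lost their calls without the sh-control pair (limma adjusted p = 0.0561, 0.0808, 0.0591 and 0.0535) and without the sh-TOP2B pair (0.0637, 0.103, 0.0555 and 0.0669), which left 6 genes called each time. The RAD51C call was lost under 6 of 9 settings, among them no intensity trend (0.072), no filter (0.0609), centring on control genes (0.0738) and quantile normalization again (0.115), and that for RAD52 under 4 of 8. With the median over probe sets H2AX (0.45), ATR (0.09), FANCI (0.15), RAD52 (-0.50) and RNF8 (-0.42) kept their sign and did not pass. Of 80 other pathway genes tested, 9 were higher and 25 lower with etoposide (42.5% called). WEE1 (-1.88), UIMC1 (-1.79) and MAD2L2, a subunit of the shieldin complex (-1.57), led on the lower side, and FANCL (1.80) and EME2 (1.35) on the higher.

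The knockdown was checked on its target first. TOP2B stood at 10.54 with the control shRNA and vehicle, at 10.87 with DHT added, and at 10.09 and 10.01 with the TOP2B shRNA, lower in both (-0.66 ± 0.12), and did not pass (limma adjusted p = 0.0934). CHEK2 was the only one of the 35 genes called, and it was higher, which is 2.86% against 1.05% of all genes tested, where all 124 calls were higher. Its levels with the control shRNA were 8.39 after vehicle and 8.76 after DHT, and with the TOP2B shRNA they were 9.87 and 9.80. CHEK2 was higher by 1.48 with vehicle and 1.04 with DHT, a mean of 1.26 ± 0.17 or 2.40-fold (adjusted p = 0.0226). The gene had 1 probe set. It alone of the 35 differed by at least 1 upward (1.11% of all genes tested), and 0 did so downward (0.00843%). Leaving out a pair from the fit changed only the spread and could not change the CHEK2 difference. The call was lost without the sh-control pair (adjusted p = 0.055) and without the sh-TOP2B pair (0.0628) in the spread, with the same size, and over all settings its adjusted p lay between 0.000455 and 0.0725.

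The other 34 genes lay between -0.42 (BLM) and 0.37 (XRCC2). The kinase genes ATM (-0.62 with vehicle and -0.08 with DHT) and ATR (-0.38 and -0.29, mean -0.33 ± 0.10, adjusted p = 0.493) had the largest negative differences in signalling. Medians were -0.05 in recombination, -0.03 in end joining and -0.01 in signalling, against -0.03 over all genes tested, and 1 gene was higher and 1 lower at an unadjusted p below 0.05. Of 80 other pathway genes tested, and of 20 proliferation genes, 0 passed with limma (1 each at an unadjusted p below 0.05).

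**Figure D4:**
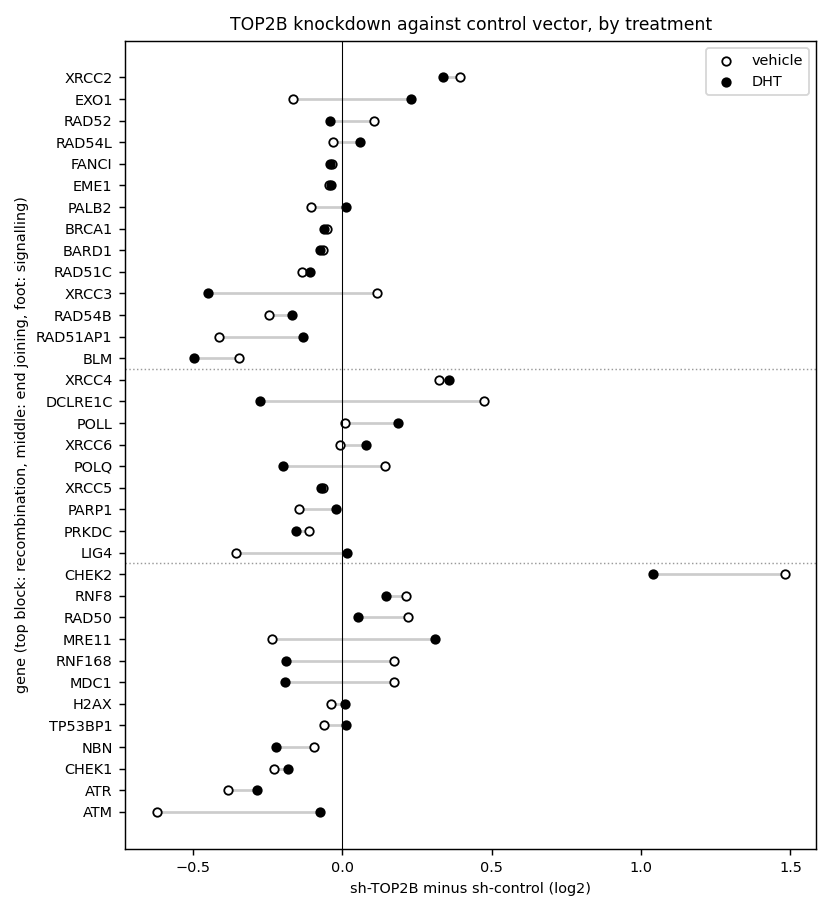
Difference between sh-TOP2B and sh-control cells (x axis, log2) for the 35 genes (y axis, by role), with vehicle (open) and with DHT (filled), 1 array against 1 each. CHEK2 stands apart at 1.48 and 1.04, and the means of the other 34 genes lie between -0.42 and 0.37.

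The response to DHT in sh-TOP2B cells was set against its mean in the 2 other backgrounds. With limma, 0 of 35 genes passed and 0 of all genes tested (0% called), with 1 and 205 at an unadjusted p below 0.05. The gene with the low p was DCLRE1C, which encodes the nuclease Artemis, with differences of 0.41 in the inhibitor pair, 0.17 in sh-control cells and -0.58 in sh-TOP2B cells (-0.87 ± 0.29, adjusted p = 1). RAD54B (0.57 ± 0.45) and RAD51AP1 (0.43 ± 0.30) had the largest positive differences among genes with no dim level in these pairs. EXO1, with both inhibitor-pair levels dim, was at 0.65 with those levels at the array median.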

How the data were processed

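Expression was measured with Affymetrix U133 Plus 2.0 arrays, 1 for each of 9 groups. The deposited values are log2 expression values of 54675 probe sets, made with RMA per the submitters' processing notes. The RMA version was not given in the sources used here. That method gives all arrays 1 distribution, which can hide a shift common to most genes. Probe sets were named from the platform annotation: 41097 had 1 gene symbol. Each gene took its probe set with the highest mean, which gave 19775 genes, and those with a mean below the 40th percentile were left out, which left 11865.

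In R 4.3.3 with limma 3.58.1, an additive fit (3 backgrounds, DHT, and 1 term each for steady state, etoposide and merbarone) gave the spread with 2 residual degrees of freedom, to which the empirical Bayes step with an intensity trend added 4.62. The test of DHT in sh-TOP2B cells had 1 and 5.16. Arrays were then compared directly, two-sided, with Benjamini-Hochberg adjustment over all genes tested at 0.05. The fit was tested on simulated data. The genes named in a comparison were those past the test and some of those with the largest differences each way. Not every role was named in each comparison. Members and lists were chosen with earlier results of these data known. Alternatives were the trend, the filter (none or the 60th percentile), the median over probe sets, centring on 8 control genes, quantile normalization again, leaving out each pair, and the DHT level fitted from all pairs.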

Additional observations from a re-analysis of the deposited data

How the results depend on the processing

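With 1 array a group, the spread rests on 3 DHT pairs, and depth is given only by signal over background: 5 of the 35 genes were dim somewhere. Of 341 values of called genes under alternatives, 300 kept direction and side of the threshold and 41 missed it. The sign changed in 0, but the trend, the filter and leaving out a pair left these differences unchanged by construction. Only the median over probe sets, centring on control genes, quantile normalization again and the fitted DHT level could change a sign. The DHT comparison was fitted with the 3 backgrounds as a block, and no block by replicate number could be fitted because the labels carry none. The count of genes past the test stayed within 1.5 times for merbarone and steady state under all settings, and for the DHT response in sh-TOP2B cells, where leaving out a pair could not be fitted, it was 0 under the 6 settings run. It moved in these cases. For DHT it was 8 without the inhibitor pair against 0. For etoposide it was 0 without the intensity trend, without the filter, with the median over probe sets, with quantile normalization again, without the sh-control pair and without the sh-TOP2B pair, 2 with the stricter filter, and 3 without the inhibitor pair or with the DHT level fitted from all pairs, against 1. Between the compounds it was 6 without the sh-control or the sh-TOP2B pair, against 10. For sh-TOP2B it was 0 without the intensity trend, without the sh-control pair and without the sh-TOP2B pair, against 1. Fewer residual degrees of freedom come with leaving out a pair; otherwise the cause was not tested. Over all genes, main counts of 53 for DHT, 124 for etoposide and 124 for sh-TOP2B became 5, 0 and 81 without the trend and 20, 56 and 152 without the filter. They became 62, 192 and 83 with the stricter filter, 2381, 1078 and 280 without the inhibitor pair, 1, 0 and 76 without the sh-control pair, and 10, 24 and 79 without the sh-TOP2B pair. For etoposide it was 232 with the DHT level fitted from all pairs. DHT had 35 with the median over probe sets and 34 centred on control genes.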
